A study of Mus musculus with 36 samples.

Results

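The integrated stress response genes under the transcription factor ATF4 were followed here in mouse embryonic stem cells exposed to blue light. They are 10 genes chosen by symbol: Atf4, Ddit3, Trib3, Chac1, Ppp1r15a, Ddit4, Sesn2, Asns, Psat1 and Phgdh. The 10 symbols matched 11 of the 54842 rows of the count table, and all 10 genes passed the filter on low counts into the 18193 genes tested. The 11th row was a second identifier for Ddit3 (ENSMUSG00000116429.1), which held 0 counts in all 36 libraries. All of its 105 exon bases lie inside the exons of the counted identifier (ENSMUSG00000025408.15), and 68 exon bases of Ddit3 overlap Mars on the opposite strand, so its counts are uncertain to that extent.

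The study compared cells transfected with LiTEC, a construct for light-induced targeting, with wild-type (WT) cells, to ask how the construct and blue light affect transcription over time. Lit LiTEC cells, dark LiTEC cells, lit WT cells and dark WT cells were each sampled at 0, 1 and 4 h after the light period, giving 12 groups of 3 libraries. Every culture, WT included, grew without serum on leukaemia inhibitory factor plus blockers of the kinases MEK and GSK3β. By the protocol in the labels all had also received 2 µg/ml doxycycline for 2 days. Lit cells had stood on a blue LED panel for 30 min. The labels do not say whether the LiTEC cells were 1 clone, nor whether replicates were separate cultures, so the p-values rest on library-to-library spread that may be technical. Replicate 1 of every group carried the label batch 1, and replicates 2 and 3 the label batch 2; the labels do not say what a batch was.

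Library totals ran from 11132970 to 21842256 counts. The 8 embryonic stem cell markers had median levels from 153 to 1071 CPM (counts scaled to a library of 1e+06 counts, with TMM scaling), whereas the medians of all markers of 5 other cell types lay at or below 36.6 CPM, the level of Nes. Gm26917, a locus that collects ribosomal RNA reads, held 16.3% of the first lit LiTEC library at 0 h and 26.1% of the third dark WT library at 4 h, against 9.87% in the median library. Results of the 10 genes that use these libraries are given without them where the call changed.

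In the integrated stress response, kinases that sense amino acid shortage, misfolded protein in the endoplasmic reticulum, double-stranded RNA or low haem phosphorylate the translation factor eIF2. Most protein synthesis then slows while Atf4 mRNA is translated more, and ATF4 pairs with C/EBP proteins to switch on genes for amino acid supply, tRNA charging and feedback. Embryonic stem cells divide rapidly and draw on amino acid supply for protein and nucleotide synthesis. ATF4 control lies largely at translation, so the mRNA level of Atf4 is not a measure of ATF4 protein.

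Per kilobase of exon, Asns was the most abundant of the genes, with a median of 105.8 CPM per kb over the 36 libraries. Atf4 followed at 49.6, Psat1 at 36.04, Sesn2 at 35.2, Phgdh at 17.2, Ddit4 at 13.9, Ppp1r15a at 10.9, Trib3 at 9.27, Chac1 at 2.53 and Ddit3 at 1.38 CPM per kb. The ranges over libraries overlapped between every pair of neighbours in this order except Sesn2, whose lowest library had 27.6 CPM per kb, and Phgdh, whose highest had 24.3. Asns alone spanned 42.8 to 131 CPM per kb, and Chac1 0.556 to 7.61.

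The sequence to which ATF4 and its C/EBP partners bind has the core TGATGNAA. That core, searched on both strands, was present in the promoter window of 3 of the 10 genes (30.0%), Chac1, Trib3 and Asns, against 4.51% of 27025 genes with a window. Windows ran from 250 bases before to 50 after each start site in RefSeq GRCm38. The matches shown are all those found in the windows of the 10 genes. Each is given 5′ to 3′ on the strand of its gene, with 10 bases on either side and the matched bases in capitals. In Chac1 (chr2:119351039-119351066, plus strand) and Trib3 (chr2:152344029-152344056, minus strand) the core reads on the opposite strand, starting at -193 and +15 from the RefSeq start site. In Asns (chr6:7693215-7693242, minus strand) it reads on the gene's own strand, from -23 by the RefSeq start. The GENCODE loci used below start elsewhere. By them Trib3 starts at 152344032, with its match upstream, and Asns at 7693254, with its match inside the gene.
Chac1: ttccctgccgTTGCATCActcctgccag
Trib3: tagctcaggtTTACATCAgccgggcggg
Asns: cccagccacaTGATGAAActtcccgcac
The stretch upstream of Chac1 that ends just before its annotated exon (RefSeq GRCm38, chr2:119350992-119351228, plus strand, 237 bases) holds the match, again in capitals.
Chac1 upstream: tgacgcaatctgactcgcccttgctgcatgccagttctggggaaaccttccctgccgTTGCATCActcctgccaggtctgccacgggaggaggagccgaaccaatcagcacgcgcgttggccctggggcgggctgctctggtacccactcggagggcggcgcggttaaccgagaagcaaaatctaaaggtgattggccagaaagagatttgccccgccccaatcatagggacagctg
A match of letters is a description, and the windows of the other 7 genes, Ppp1r15a, Sesn2 and Ddit4 among them, hold no such letters.

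The first comparison asked what 30 min of blue light did to these genes by its end. Straight after light, Ppp1r15a mRNA fell in lit against dark cells averaged over both genotypes, and it was the 1 gene of the 10 called. Ppp1r15a (chr7:45522916-45526268, GRCm38, minus strand) encodes GADD34, the inducible phosphatase subunit that removes the phosphate from eIF2 and so closes the feedback loop of the response. It had 21.3, 29.6 and 25.8 CPM in lit LiTEC cells, against 31.2, 33.0 and 30.6 CPM in dark LiTEC cells. In WT it had 23.3, 30.0 and 26.8 CPM in lit cells, against 33.9, 33.9 and 37.1 CPM in dark cells. Lit and dark libraries did not overlap in either genotype, and the lit library was the lower in all 6 pairs of lit and dark libraries with the same replicate number. Here and below, overlap of groups and order within pairs describe these libraries. They were not tested or set against the share of all genes that show the same.

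The log2 fold change of Ppp1r15a, lit over dark, was -0.32 ± 0.11 in LiTEC cells (SE; edgeR quasi-likelihood adjusted p = 0.182) and -0.39 ± 0.10 in WT cells (edgeR adjusted p = 0.0279). It was the 1 gene of 10 called in WT, at an adjusted p below 0.05 over all tested genes, where 2.86% of all genes were called and 1.2% were called lower. Averaged over both genotypes it fell by 0.36 on the log2 scale (SE 0.07; edgeR adjusted p = 0.00205), again the 1 call of 10, against 5.37% of all genes called and 2.61% called lower. In LiTEC cells none of the 10 was called by edgeR or DESeq2, against 0.934% of all genes, and Ppp1r15a was the 1 gene with an unadjusted p below 0.05, against 10.1% of all genes. The difference between the genotypes' responses was 0.07, with a 95% interval from -0.23 to 0.37.

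The averaged fall held when any of the 12 libraries was left out (log2 fold change -0.41 to -0.32). Without replicate 1 of lit LiTEC cells, the library with 16.3% of counts on Gm26917, it was -0.32 (edgeR adjusted p = 0.0121), and the LiTEC value was -0.23 (edgeR adjusted p = 0.772). The WT call by itself was lost without replicate 1 or 3 of lit WT cells or replicate 1 or 3 of dark WT cells, with edgeR adjusted p up to 0.218. The averaged difference was -0.26 in batch 2 and -0.54 in batch 1, as means of log2(CPM + 0.5), and in an edgeR fit of batch 2 alone the adjusted p was 0.085. Ppp1r15a shares 12 exon bases with Tulp2 on the opposite strand.

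The other 9 genes showed no call at 0 h. Atf4 itself (chr15:80255184-80257541) had 113.5, 157.5 and 125.6 CPM in lit LiTEC cells, against 105.4, 159.6 and 121.8 CPM in dark LiTEC cells. Its levels in WT were 113.5, 134.8 and 109 CPM in lit cells, against 105.7, 122.8 and 114 CPM in dark cells. Its averaged log2 fold change was 0.05, with a 95% interval from -0.13 to 0.22, and lit and dark libraries overlapped in both genotypes. Among the fixed lists of neighbouring genes, Cebpg, which encodes a C/EBP partner of ATF4, was the 1 of 7 bZIP and partner regulators called, in WT and averaged over genotypes. Of all genes 2.86% were called in WT and 5.37% averaged. The WT call was lost with no batch term (edgeR adjusted p = 0.0646), in batch 2 alone (0.255) and without either of 2 of 6 libraries, and the averaged call in batch 2 alone (0.125).

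Cebpg had 33.9, 32.8 and 38.9 CPM in lit LiTEC cells at 0 h, against 26.1, 31.2 and 29.8 CPM in dark LiTEC cells. In WT it had 40.2, 35.4 and 38.8 CPM in lit cells at 0 h, against 27.8, 33.7 and 22.2 CPM in dark cells. All lit libraries of a genotype lay above its dark ones, and the averaged log2 fold change was 0.37 ± 0.08 (edgeR adjusted p = 0.0029). Dnajb9 (0.33 ± 0.08) and Edem1 (0.17 ± 0.05), of protein folding and disposal in the endoplasmic reticulum, were the 2 of 20 unfolded protein response genes higher, with 0 lower. The share of all genes called in this averaged comparison was 5.37%. Edem1 was lost with no batch term (edgeR adjusted p = 0.0977), with no expression filter (0.167), in batch 2 alone (0.418) and without any 1 of 9 of the 12 libraries, and Dnajb9 in batch 2 alone (0.137). None of 14 genes of eIF2 control, 9 amino acid transporters, 9 amino acid and one-carbon synthesis genes, 13 genes of tRNA charging and export or 5 other ATF4 targets was called at 0 h by edgeR, in either genotype or averaged. Of 18 p53 targets 1, Trp53cor1, was lower in LiTEC and averaged, and 0 were higher. Both calls were lost with no batch term (edgeR adjusted p = 0.757 in LiTEC and 0.434 averaged). The LiTEC call was also lost in batch 2 alone (0.107).

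**Figure D1:**
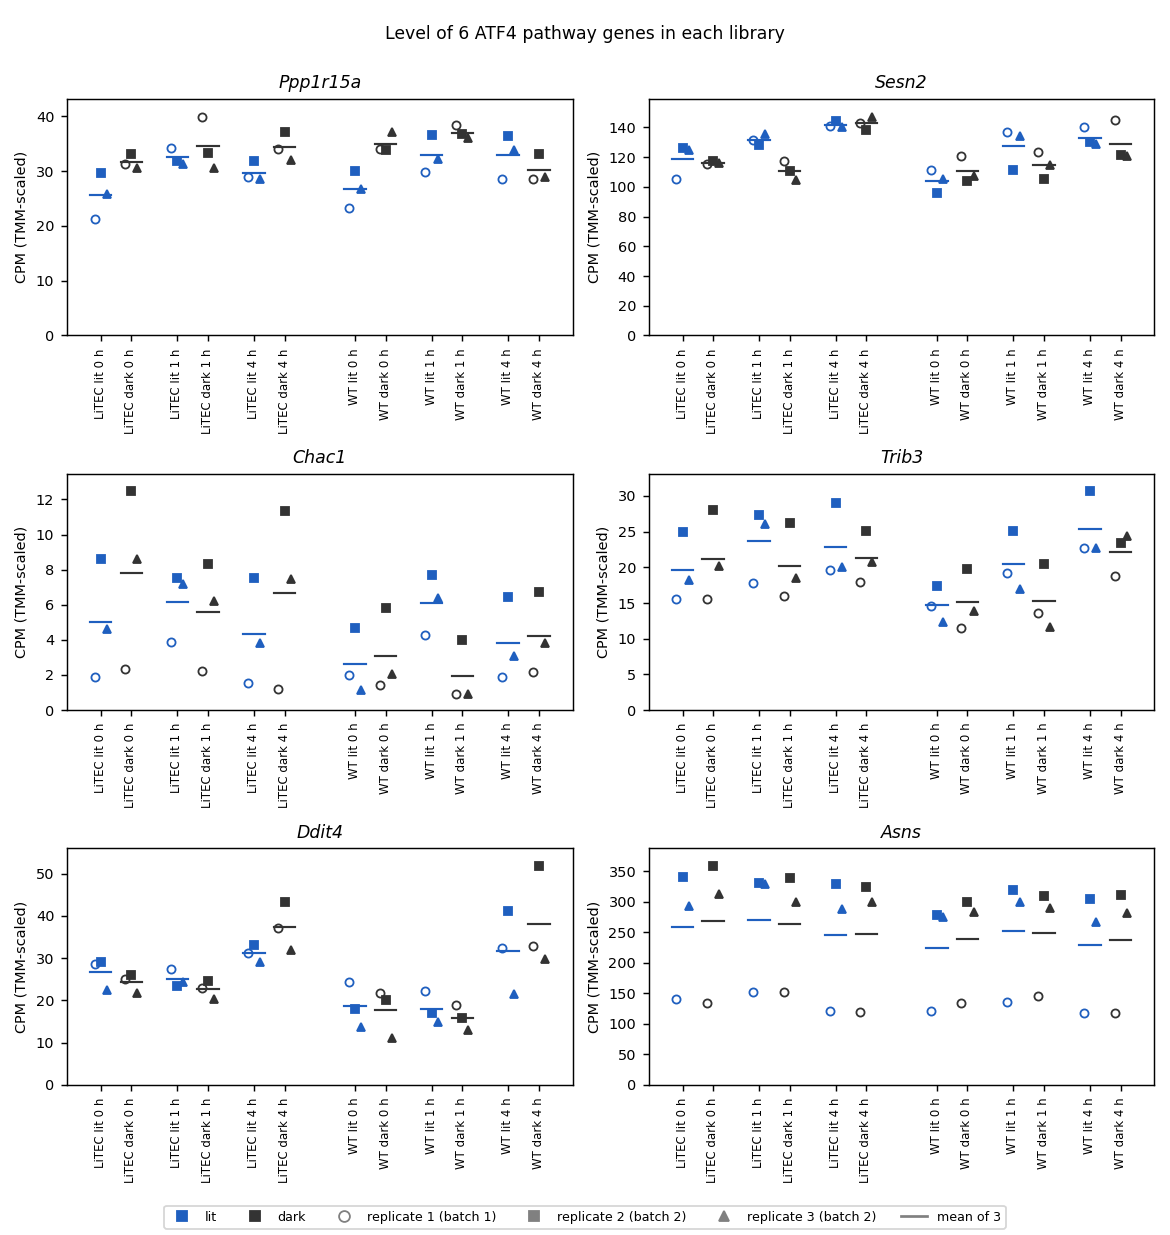
Level of Ppp1r15a, Sesn2, Chac1, Trib3, Ddit4 and Asns in each of the 36 libraries, in CPM on TMM-scaled library sizes, for lit (blue) and dark (dark grey) cells of LiTEC and WT at 0, 1 and 4 h after light; the line is the mean of 3 and the symbol gives the replicate. Ppp1r15a at 0 h is lower in lit libraries of both genotypes, Chac1 at 1 h is higher in lit WT libraries, Ddit4 and Sesn2 have their highest group means at 4 h, and the batch 1 libraries of Asns lie at 117 to 152 CPM below all others.

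One hour after light the genes that stood higher in lit cells were others. Sesn2 (chr4:132492032-132510501, minus strand) encodes sestrin 2, which restrains mTORC1 when leucine is scarce and is also a p53 target. It had 132, 128 and 135 CPM in lit LiTEC cells, against 117, 111 and 105 CPM in dark LiTEC cells. Its levels in WT were 137, 111 and 134 CPM in lit cells, against 123, 106 and 114.5 CPM in dark cells. The lit library was the higher in all 6 same-numbered pairs, and in LiTEC the groups did not overlap.

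The averaged log2 fold change of Sesn2 was 0.20 ± 0.05 (edgeR adjusted p = 0.0398). It was the 1 of 10 genes called at 1 h over both genotypes, against 1.14% of all genes called and 0.676% called higher. The call was lost without any 1 of 10 of the 12 libraries, with edgeR adjusted p up to 0.141 and log2 fold changes of 0.17 to 0.24. The averaged difference was 0.22 in batch 2 and 0.16 in batch 1. The 2 libraries whose removal left the call in place were replicate 2 of lit WT cells and replicate 1 of dark WT cells.

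Chac1 (chr2:119351229-119354381, plus strand) encodes an enzyme that breaks down glutathione. In WT cells at 1 h it had 4.27, 7.67 and 6.41 CPM in lit libraries, against 0.914, 4.02 and 0.91 CPM in dark libraries. The groups did not overlap, and the log2 fold change of 1.73 ± 0.47 was the largest of any of the 10 genes in a light comparison. It missed the threshold in the fit with a batch term (edgeR adjusted p = 0.152) and passed with the replicate number as a block (1.78, edgeR adjusted p = 0.0028). In LiTEC cells Chac1 had 3.87, 7.51 and 7.17 CPM in lit libraries, against 2.21, 8.32 and 6.22 CPM in dark libraries, and the groups overlapped.

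The LiTEC log2 fold change of Chac1 was 0.22 ± 0.41, and its difference from that in WT was -1.51, with a 95% interval from -2.78 to -0.24. That difference was not called (edgeR adjusted p = 1, unadjusted p = 0.0213). The lit minus dark difference in WT was 1.57 in batch 2 and 1.75 in batch 1. The counts behind Chac1 were low, 15 to 201 per library, and the 95% interval in LiTEC ran from -0.61 to 1.06.

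Trib3 (chr2:152337422-152344032, minus strand) encodes a pseudokinase that ATF4 and CHOP induce and that feeds back on both. At 1 h it had 17.9, 27.3 and 26.0 CPM in lit LiTEC cells, against 15.9, 26.2 and 18.5 CPM in dark LiTEC cells. In WT it had 19.2, 25.1 and 16.9 CPM in lit cells, against 13.6, 20.4 and 11.7 CPM in dark cells. The lit library was the higher in all 6 same-numbered pairs although the groups overlapped. Its averaged log2 fold change was 0.33 ± 0.13 (edgeR adjusted p = 0.299), and with the replicate block it was 0.34 (edgeR adjusted p = 0.0163).

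With that block the averaged light effect at 1 h was called for 3 of the 10 genes, Sesn2, Trib3 and Chac1 (1.01, edgeR adjusted p = 0.00479). Chac1 without the block stood at 0.98 ± 0.31 (edgeR adjusted p = 0.127), and was called without replicate 2 of dark WT cells at 1 h (adjusted p = 0.0443). Ddit3, which encodes the pro-apoptotic factor CHOP, had 2.63, 2.68 and 2.79 CPM in lit LiTEC cells at 1 h, against 2.21, 1.96 and 1.51 CPM in dark LiTEC cells. Its levels in WT were 1.97, 2.41 and 1.74 CPM in lit cells, against 1.34, 2.09 and 1.47 CPM in dark cells. The lit library was again the higher of all 6 pairs, and the LiTEC groups did not overlap. In LiTEC the mean of Ddit3 in lit cells at 1 h, 2.70 CPM, was above dark cells at 1 h (1.89 CPM). It was below dark LiTEC cells at 0 h (3.46 CPM) and 4 h (4.16 CPM). In WT the lit mean at 1 h was 2.04 CPM, against 1.73, 1.63 and 2.65 CPM in dark cells at 0, 1 and 4 h. At 21 to 113 counts per library the averaged log2 fold change of Ddit3 at 1 h, 0.43 ± 0.22, was not called (edgeR adjusted p = 0.474). In the fits with a batch term, by edgeR or DESeq2, none of the 10 genes was called at 1 h in LiTEC cells, against 0.115% of all genes, or in WT cells, against 0.286%. With the replicate block 1 was called in WT, Chac1, as given above. At an unadjusted p below 0.05 there was 1 in LiTEC (Sesn2), against 6.26% of all genes, and there were 3 in WT (Trib3, Chac1 and Sesn2), against 7.07%.

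Genes for making amino acids showed no call at 1 h. Asns, which encodes asparagine synthetase, had an averaged log2 fold change of 0.02 (95% interval -0.09 to 0.12). Psat1 and Phgdh, both enzymes of serine synthesis, had 0.10 (-0.04 to 0.24) and 0.01 (-0.17 to 0.19). Atf4 stood at -0.05 (-0.23 to 0.12). The intervals of Asns and Atf4 both ended at 0.12 on the log2 scale.

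Of the other genes of the pathway, Cebpg was again higher at 1 h, by 0.44 ± 0.08 averaged over genotypes (edgeR adjusted p = 0.00185). It had 28.0, 33.8 and 34.2 CPM in lit LiTEC cells, against 19.2, 24.4 and 25.7 CPM in dark LiTEC cells. Its levels in WT were 32.3, 29.9 and 30.8 CPM in lit cells, against 22.7, 24.3 and 23.3 CPM in dark cells. No lit library overlapped a dark library of its genotype, and the averaged call was lost in batch 2 alone (edgeR adjusted p = 0.121).

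The lists at 1 h are to be read against the 1.14% of all genes called averaged over genotypes and the 0.676% called higher. In the unfolded protein response list 4 of 20 genes were higher at 1 h averaged over genotypes and 0 were lower. They were Herpud1 (0.74 ± 0.14, edgeR adjusted p = 0.00206), which takes part in degrading misfolded proteins, Xbp1 (0.32 ± 0.05), a transcription factor of that response, the chaperone gene Hspa5 (0.29 ± 0.05) and Manf (0.25 ± 0.06). All 4 calls were lost with no batch term: edgeR adjusted p was 0.102 for Herpud1, 0.211 for Xbp1, 0.121 for Hspa5 and 0.0867 for Manf. In batch 2 alone Herpud1 (0.17), Hspa5 (0.0836) and Manf (0.311) were lost, and Manf was lost without any 1 of 8 of the 12 libraries. In the p53 list 4 of 18 were higher and 0 lower. They were Btg2 (0.40 ± 0.07), Trp53inp1 (0.26 ± 0.05), Mdm2 (0.23 ± 0.04) and Ei24 (0.22 ± 0.05). Each of these calls was lost under an alternative. With no batch term edgeR adjusted p was 0.353 for Btg2, 0.617 for Trp53inp1 and 0.717 for Ei24, and in batch 2 alone it was 0.272 for Trp53inp1, 0.0803 for Mdm2 and 0.388 for Ei24. Ei24 was also lost without any 1 of 4 of the 12 libraries. None of the genes of eIF2 control, amino acid transport, amino acid synthesis and tRNA charging, or of the other ATF4 targets, was called at 1 h by edgeR.

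**Figure D2:**
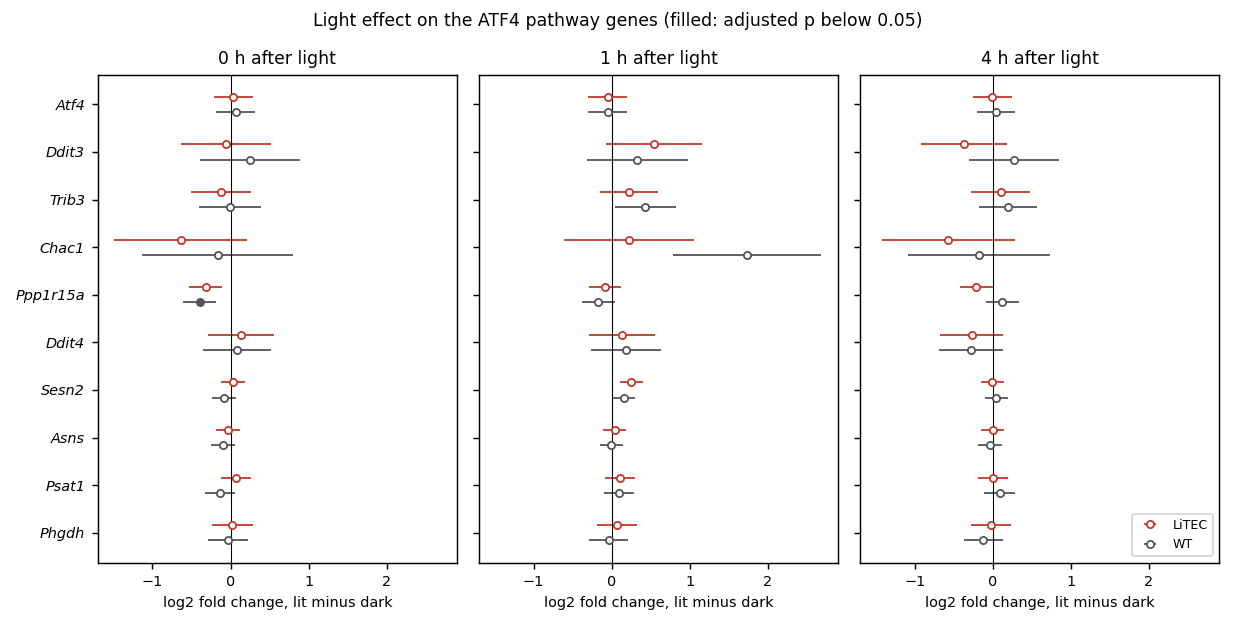
Log2 fold change of lit over dark cells for each of the 10 genes at 0, 1 and 4 h after light, in LiTEC (red) and WT (dark grey), with 95% intervals; filled points passed an adjusted p below 0.05. Ppp1r15a in WT at 0 h is the 1 filled point, at -0.39, and Chac1 in WT at 1 h has the largest value, 1.73, with a wide interval.

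At 4 h after light no gene of the 10 was called by edgeR or DESeq2, in LiTEC (0.011% of all genes called), in WT (0%) or averaged (0.275%). At an unadjusted p below 0.05 there was 1 in LiTEC, Ppp1r15a at -0.21, against 6.35% of all genes. There were 0 in WT, against 8.16%, and 0 averaged, against 10.7%. Ddit4 (chr10:59949669-59951834, minus strand), which encodes the mTORC1 inhibitor REDD1, was the 1 gene with the lit library lower in all 6 same-numbered pairs. It had 31.1, 33.2 and 29.0 CPM in lit LiTEC cells, against 37.1, 43.4 and 31.9 CPM in dark LiTEC cells. In WT it had 32.4, 41.1 and 21.6 CPM in lit cells, against 32.8, 51.8 and 29.8 CPM in dark cells. Groups overlapped in both genotypes, and the averaged log2 fold change of -0.28 ± 0.14 was not called (edgeR adjusted p = 0.487; without the WT library with 26.1% of counts on Gm26917, -0.34 and adjusted p = 0.423).

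The next comparison asked whether LiTEC changed the response to light. None of the 10 genes was called at 0, 1 or 4 h by edgeR or DESeq2, where 0.022%, 0% and 0% of all genes were. At an unadjusted p below 0.05 there were 0 of 10 at 0 h, 1 at 1 h (Chac1) and 1 at 4 h (Ppp1r15a, -0.33, 95% interval -0.63 to -0.04), against 6.21%, 2.08% and 3.61% of all genes. At 4 h Ppp1r15a had 28.9, 31.7 and 28.6 CPM in lit LiTEC cells, against 34.0, 37.1 and 32.0 CPM in dark LiTEC cells. Its levels in WT were 28.5, 36.4 and 33.8 CPM in lit cells, against 28.6, 33.1 and 28.9 CPM in dark cells. The lit LiTEC libraries lay below the dark ones, while the WT groups overlapped.

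LiTEC and WT cells were also compared with light held the same. In the dark 5 of the 10 genes were higher in LiTEC and 0 lower, but 47.6% of all genes were called in this comparison and 23.9% were called higher. Chac1 had the largest log2 fold change, 1.09 ± 0.25 (edgeR adjusted p = 0.000566). At 0 h it had 2.32, 12.5 and 8.59 CPM in dark LiTEC cells, against 1.40, 5.83 and 2.06 CPM in dark WT cells. At 4 h it had 1.22, 11.3 and 7.49 CPM in dark LiTEC cells, against 2.17, 6.74 and 3.84 CPM in dark WT cells.

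The difference in Chac1 was 1.28 in batch 2 and 0.29 in batch 1. At 4 h the batch 1 library was lower in LiTEC than in WT. Ddit3 was higher in dark LiTEC cells by 0.61 ± 0.17, Ddit4 by 0.32 ± 0.12, Trib3 by 0.28 ± 0.11 and Psat1 by 0.16 ± 0.06. The difference in Psat1 was 0.24 in batch 2 and 0.00 in batch 1. Trib3 was not called by DESeq2 (adjusted p = 0.0522). With the replicate block, Asns (0.09, edgeR adjusted p = 0.0201) was called higher and Phgdh (-0.12, edgeR adjusted p = 0.046) lower as well.

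In lit cells 4 of the 10 genes were higher in LiTEC and 0 lower, against 43.4% of all genes called and 22.2% called higher. Ddit4 was higher by 0.32 ± 0.12, Psat1 by 0.20 ± 0.06, Asns by 0.14 ± 0.04 and Sesn2 by 0.11 ± 0.04. Ddit4 and Psat1 were called in the dark and in the light, where 47.6% and 43.4% of all genes were called. The share of all genes called in both is not given. These comparisons share no library, but they share the cell lines, the replicate numbers and 1 fit, so they are not independent. Ddit3 was called with the replicate block (0.38, edgeR adjusted p = 0.0203). Chac1, at 0.31 ± 0.25, was not called in lit cells. Within batches, Psat1 differed by 0.32 in batch 2 and -0.04 in batch 1, and Sesn2 by 0.19 in batch 2 and -0.04 in batch 1.

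Several of these calls were lost when 1 library was left out. In the dark, Ddit4 and Trib3 were each lost without replicate 2 of LiTEC cells at 0, 1 or 4 h or replicate 3 of WT cells at 0 or 1 h. Ddit4 was also lost without replicate 1 or 3 of WT cells at 4 h (edgeR adjusted p up to 0.0866), the second being the library with 26.1% of counts on Gm26917 (adjusted p = 0.0567). Trib3 was also lost without replicate 1 of WT cells at 0 h or 2 at 4 h (adjusted p up to 0.12), and Psat1 without replicate 2 of LiTEC cells at 4 h (adjusted p = 0.0609). In the light, Ddit4 was lost without replicate 2 of LiTEC cells at 0 or 4 h, replicate 3 of WT cells at 0 or 1 h, or replicate 1 or 3 of WT cells at 4 h (adjusted p up to 0.0916). Sesn2 was lost without replicate 2 or 3 of LiTEC cells at 0 or 4 h, 3 of LiTEC cells at 1 h, 2 of WT cells at 0 or 1 h, or 3 of WT cells at 4 h (adjusted p up to 0.0949).

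The lists around the 10 genes held calls in both directions in the dark, and are to be read against the 47.6% of all genes called. Of 20 unfolded protein response genes 13 were lower in LiTEC and 4 higher, with the chaperone Hyou1 at -0.55 ± 0.05 and Hspa5 at -0.43 ± 0.04. Of 7 bZIP and partner regulators 4 were higher and 0 lower, among them Atf3 (1.06 ± 0.29), which was not called in lit cells. Of the others, Nupr1 was lost with no batch term (edgeR adjusted p = 0.274) and in batch 2 alone (0.155), and Jdp2 in batch 2 alone (0.0603). Of 13 genes of tRNA charging and export 6 were lower and 1 higher, and of 14 genes of eIF2 control 7 were lower and 2 higher. Of 18 p53 targets 7 were higher and 6 lower. Of 9 amino acid transporters 5 were higher and 2 lower, and of 9 amino acid and one-carbon synthesis genes 6 were higher and 2 lower. Of 5 other ATF4 targets 2 were higher and 1 lower. With no batch term the transporters Slc6a9 (edgeR adjusted p = 0.0655) and Slc7a1 (0.116) were not called. Nor were the synthesis genes Aldh1l2 (0.17) and Pycr1 (0.0548). Markers of other cell types are given beside these. The summed level of the 4 markers of the 2-cell-like state ran from 3.72 to 27.1 CPM in LiTEC libraries and from 0 to 2.53 CPM in WT libraries, with Tcstv1 at 0 in 29 of the 36 libraries. The 4 mesendoderm markers summed to 5.06 to 10.5 CPM in LiTEC and 7.33 to 21.4 CPM in WT, and the 5 fibroblast or feeder markers to 2.12 to 6.65 CPM in LiTEC and 4.35 to 10.1 CPM in WT. The 5 primitive endoderm markers summed to 5.34 to 8.99 CPM in LiTEC and 3.72 to 6.35 CPM in WT, and the 3 neuroectoderm markers to 42.3 to 66.9 CPM in LiTEC and 30.3 to 56.8 CPM in WT. The part of these cell states in the differences was not tested, and in bulk libraries more cells and more RNA per cell cannot be told apart.

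Time itself was compared in the dark libraries of both genotypes together. At 4 h Ddit4 and Sesn2 were higher than at 0 h, the 2 genes called of 10, against 15.5% of all genes called and 7.82% called higher. Ddit4 had 37.1, 43.4 and 31.9 CPM in dark LiTEC cells at 4 h, against 25.1, 26.0 and 21.7 CPM at 0 h. In dark WT cells it had 32.8, 51.8 and 29.8 CPM at 4 h, against 21.6, 20.2 and 11.05 CPM at 0 h. Neither genotype's groups overlapped, and the log2 fold change was 0.88 ± 0.15 (edgeR adjusted p = 9.12e-05).

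Sesn2 had 142.9, 138 and 147.2 CPM in dark LiTEC cells at 4 h, against 115.4, 117.4 and 116.4 CPM at 0 h. In dark WT cells it had 144.9, 121.6 and 120.8 CPM at 4 h, against 120.6, 103.7 and 107 CPM at 0 h. In each genotype the 4 h libraries lay above the 0 h ones, and the log2 fold change was 0.26 ± 0.05 (edgeR adjusted p = 0.000775). Both calls held without any 1 library, with log2 fold changes of 0.71 to 0.96 for Ddit4 and 0.23 to 0.28 for Sesn2. Without the WT library with 26.1% of counts on Gm26917, that of Ddit4 was 0.94. Within batches it was 1.0 in batch 2 and 0.57 in batch 1.

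Trib3 had a log2 fold change of 0.28 ± 0.13 (edgeR adjusted p = 0.149), dark 4 h over dark 0 h, and was called with the replicate block (0.29, edgeR adjusted p = 0.00926). With the block 3 of the 10 genes were called. The lists at 4 h are to be read against the 15.5% of all genes called in this comparison and the 7.82% called higher. Of 18 p53 targets 10 were higher at 4 h and 0 lower, among them Cdkn1a (0.65 ± 0.07), Phlda3 (0.44 ± 0.09), Btg2 (0.41 ± 0.07) and Bbc3 (0.41 ± 0.09). With no batch term Cdkn1a (edgeR adjusted p = 0.0824), Btg2 (0.0686) and Bbc3 (0.196) were not called. Of 20 unfolded protein response genes 2 were higher and 6 lower, and of 14 genes of eIF2 control 3 were higher and 1 lower. Each of these eIF2 control calls was lost under an alternative. In batch 2 alone Impact (edgeR adjusted p = 0.0857), Gcn1l1 (0.0591) and Eif2s1 (0.0875) were lost, and Eif2s1 also with no batch term (0.0655). Eif2ak3 was lost with no expression filter (0.0912) and without either of 2 of the 12 libraries. At 1 h against 0 h in the dark none of the 10 genes was called by edgeR or DESeq2, against 1.31% of all genes, and 1 gene, Ddit3 at -0.49, had an unadjusted p below 0.05, against 12.3% of all genes.

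Asns, Psat1, Phgdh and Atf4 had a larger log2 fold change between the batches than in any comparison of light, genotype or time. The comparison of batches was added after the data were seen. It sets replicate numbers 2 and 3 against number 1, and libraries of the same number deviated together (mean r from 0.269 to 0.451), so its p-values, which treat libraries as independent, are too small. Its calls describe these libraries. In batch 2 against batch 1, 7 of the 10 genes were higher and 0 lower, against 40.5% of all genes called and 20.4% called higher. The median log2 fold change was 0.375 for the 10 genes and 0.0033 for all tested genes. Asns (chr6:7675169-7693254, minus strand) had 267 to 359 CPM in the 24 libraries of batch 2, with a median of 301.9, and 117 to 152 CPM in the 12 libraries of batch 1, with a median of 133.9. The batches did not overlap, and the log2 fold change was 1.22 ± 0.03.

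Chac1 was higher in batch 2 by 1.48 ± 0.21, Psat1 by 0.68 ± 0.04, Ddit3 by 0.52 ± 0.13, Phgdh by 0.39 ± 0.06, Trib3 by 0.36 ± 0.08 and Atf4 by 0.22 ± 0.05. Psat1 (chr19:15904678-15947337) had 132 to 202 CPM in batch 2 and 95.4 to 117 CPM in batch 1, with no overlap. Phgdh (chr3:98313170-98339990) had 38.8 to 60.3 CPM in batch 2 and 32.9 to 39.2 CPM in batch 1. Its replicates 2 and 3 were above replicate 1 in 12 of 12 groups, as were those of Asns and Psat1. Ddit4, Sesn2 and Ppp1r15a were not called, and with the replicate block Ddit4 (-0.18, edgeR adjusted p = 0.0197) and Sesn2 (-0.08, edgeR adjusted p = 0.0338) were lower in batch 2. Sesn2 was also called lower without replicate 1 of lit LiTEC cells at 0 h, the library with 16.3% of counts on Gm26917 (-0.10, edgeR adjusted p = 0.00423), and without any 1 of 10 other libraries.

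The lists outside the 10 genes are to be read against the 40.5% of all genes called between batches. In batch 2, 12 of 13 genes of tRNA charging and export were higher and 0 lower, and 8 of 9 amino acid and one-carbon synthesis genes were higher and 1 lower. Among the first were Nars (0.40 ± 0.04) and Cars (0.38 ± 0.04), and among the synthesis genes Aldh1l2 (1.25 ± 0.19) and Aldh18a1 (0.73 ± 0.07) were higher and Cth (-0.49 ± 0.04) lower. Of 9 amino acid transporters 5 were higher and 2 lower, of 7 bZIP and partner regulators 1 was higher and 3 lower, and of 18 p53 targets 15 were lower and 2 higher. Of 14 genes of eIF2 control 6 were higher and 0 lower, and of 20 unfolded protein response genes 2 were higher and 5 lower. Of 5 other ATF4 targets 1 was higher and 0 lower.

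Within batch 2 the 2 replicate numbers were compared with the same limit on their p-values. In replicate 2 against replicate 3, 8 of the 10 genes were higher and 0 lower in the fit with the replicate block, against 27.7% of all genes called and 13.3% called higher. Chac1 was higher by 0.79 ± 0.14, with replicate 2 above replicate 3 in 12 of 12 groups. Ddit3 was higher by 0.49 ± 0.12, Ddit4 by 0.42 ± 0.07, Trib3 by 0.41 ± 0.06 and Atf4 by 0.25 ± 0.04. Phgdh was higher by 0.24 ± 0.04, and Psat1 and Asns by 0.13 ± 0.04 and 0.13 ± 0.03. Sesn2 (-0.05 ± 0.03) and Ppp1r15a (0.11 ± 0.05) were not called. Lit and dark libraries, and LiTEC and WT libraries, were present in equal number at every replicate number, so these differences were balanced across the study's comparisons. What set the batches and replicates apart was not tested.

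**Figure D3:**
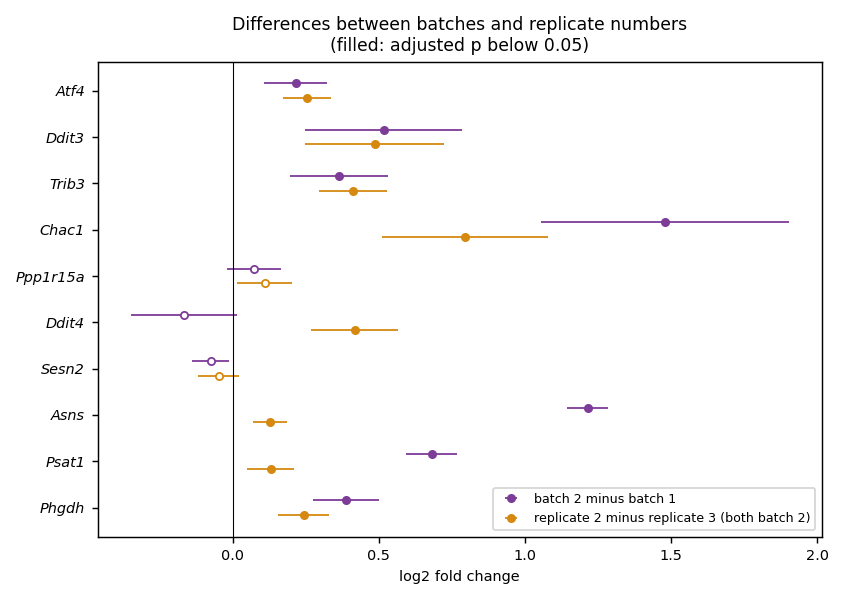
Log2 fold change of batch 2 over batch 1 (purple) and of replicate 2 over replicate 3 within batch 2 (orange) for the 10 genes, with 95% intervals; filled points passed an adjusted p below 0.05. Asns (1.22) and Chac1 (1.48) differ most between batches, Ddit4 was called between the replicates (0.42) but had -0.17 between the batches, not called, and Sesn2 and Ppp1r15a lie near 0 in both.

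Once batch was taken out, the correlations between the 10 genes over the 12 group means were of both signs. The highest Pearson correlation of batch-adjusted log2 CPM was between Ddit3 and Ddit4 (0.825), followed by Trib3 and Sesn2 (0.787), and the lowest was between Asns and Phgdh (-0.493). These are descriptions over 12 group means that share libraries and a common scale. The genes outside the 10 with a pattern most like that of Atf4 were Vegfb (0.917), Unc45a (0.855), Dcaf11 (0.825), Vps16 (0.812) and R3hdm4 (0.806). Those most like Trib3 were 2900052L18Rik (0.88), Gtf2ird1 (0.861), Gcnt2 (0.853), Anks1 (0.85) and Fam219b (0.842).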

How the data were processed

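RNA was made into libraries with a stranded mRNA kit, per the labels' protocols, and the authors deposited 1 table of whole-number read counts per gene for the 36 libraries, not normalized. The submitters' processing notes name FastQC, featureCounts and the build GRCm38 (mm10); the sources used here do not give the aligner, the versions or the strand setting. The 10 genes, the gene lists and the tests were chosen with earlier results of these data known.

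All 36 libraries entered 1 edgeR quasi-likelihood fit (edgeR 4.0.16, limma 3.58.1, R 4.3.3) of 12 group means plus batch, with TMM scaling. The expression filter (minimum count 10) left 18193 genes, which kept at least 99.8792% of each library's counts, and 23 residual degrees of freedom. P-values were Benjamini-Hochberg adjusted over these genes, and called means below 0.05. Where no setting is named, edgeR values are from this fit. Standard errors are the log2 fold change divided by the root of the F statistic. The fit was checked on simulated counts. These had independent libraries with no batch difference, so the check does not cover libraries of the same number deviating together. No 2 libraries held identical values.

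Alternatives were a replicate block, no batch term, DESeq2 1.42.0, RLE size factors, no expression filter, batch 2 alone and leaving out each library. Added after the data were seen were the batch comparison and a fit without Gm26917 and Gm42418. Lit and dark libraries of the same number deviated together (r from 0.231 to 0.511 over all 18 pairs). The replicate numbers, which come from the labels, were therefore taken as pairs in the replicate block and in the same-numbered pairs. The main fit has a batch term only and does not use the pairing within batch 2. A gene not called in the main fit may thus be called with the block, and such calls are given beside the results. From the lists, called genes were named, at most 4 a list, by size of log2 fold change. For likeness, genes averaging 5 CPM or more were ranked by Pearson correlation over 12 group means. Loci are from GENCODE and sequences from RefSeq, both GRCm38. Figures were drawn with matplotlib 3.10.9.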

Additional observations from a re-analysis of the deposited data

How the results depend on the processing

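No called value changed direction under any alternative run. Of 21 calls of the 10 genes over all comparisons but that of replicates 2 and 3, 10 were lost under at least 1 alternative that kept all libraries or batch 2, and 7 without 1 library. Of the 10 genes, light in WT at 0 h called 1, and 0 with no batch term or in batch 2 alone (0 to 1 when a library was left out). In WT at 1 h it called 0, and 1 with the replicate block or no expression filter. The difference between genotypes at 1 h called 0, and 1 (Chac1, edgeR adjusted p = 0.00334) with no expression filter. The log2 fold change of Chac1 there was -1.49, against -1.51 in the main fit, so that call was gained without a larger effect. Averaged over genotypes, the count at 0 h was 1, and 0 in batch 2 alone. At 1 h it was 1, and 3 with the replicate block or no expression filter, 0 with no batch term or in batch 2 alone, and 0 to 1 when a library was left out. At 4 h it was 0, and 1 (Ddit4) with no expression filter. LiTEC against WT in the dark called 5, and 2 with no batch term, 3 in batch 2 alone and 3 to 6 when a library was left out. In the light it called 4, and 0 with no batch term, 2 in batch 2 alone and 2 to 5 when a library was left out. Dark 1 h against dark 0 h called 0, and 1 (Chac1) with no expression filter. The replicate block changed no call of the 10 genes other than those given beside the results. With RLE size factors, or without Gm26917 and Gm42418, no count of calls moved by more than 1.5 times. Batch 2 alone has 2 libraries a group, and the cause of the other changes was not tested. Counts of 15 to 201 for Chac1 and 21 to 113 for Ddit3 per library limit what could be detected for these genes. For listed genes outside the 10 that are named in the light and time results, losses of calls are given there. For LiTEC against WT in the dark, some losses of listed genes are given. Other called genes of the lists have no such account.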
